A study of Homo sapiens with 6 samples.

Results

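HCT116, a cell line established from a human colorectal carcinoma, was profiled by RNA sequencing, and the values were used to follow nuclear pseudogenes copied from the protein genes of the mitochondrial genome. Cells were infected either with the negative control lentivirus LV-NC (3 libraries) or with LV-SNORA28 (3 libraries), which expresses the H/ACA small nucleolar RNA SNORA28, and the comparison asked what overexpression of SNORA28 changes. The lentiviral vector backbone and the puromycin selection of stably infected cells belong to the study's general methods. Its sequencing methods name infection and collection but no selection, so whether these libraries came from selected cells is not stated. Nothing in the labels ties a library to a separate culture, so p-values measure only the spread between these libraries. The members were chosen by their measured values: a GENCODE pseudogene whose symbol begins with MTND, MTCO, MTATP or MTCYB was taken when at least 1 of the 6 libraries listed it above 0 FPKM, a unit that counts fragments per length of transcript and per size of library. Of 60612 genes in each table, 404 were annotated as such copies, 62 were members and 342 were listed at 0 in every library.

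Mitochondrial DNA fragments that were inserted into the nuclear chromosomes over evolution are called nuclear mitochondrial segments. A segment may carry several mitochondrial genes in their original order, but its reading frames no longer give the same proteins, because cytosolic ribosomes use another genetic code. Young segments are still close in sequence to the mitochondrial genome, so that a read from an abundant mitochondrial transcript can also be placed on the nuclear copy, and the reverse. Each copy is named after its parent, which encodes a subunit of the respiratory chain: MT-ND1 to MT-ND6 of complex I, MT-CYB of complex III, MT-CO1 to MT-CO3 of complex IV, and MT-ATP6 and MT-ATP8 of ATP synthase.

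The sequences of 3 copies on which the results turn are shown beside their parents, because they show how few bases separate the members of a pair. For each pair, the 150 bases with the most differences are given from the hg38 reference, 5′ to 3′ on the strand of the gene, and capitals mark the bases that differ. MTND6P4 lies at chr5:134924373-134924522 on the plus strand and MT-ND6 at chrM:14274-14423 on the minus strand. The other copies are all on the plus strand of chromosome 1, with MTCO2P12 at chr1:633189-633338 and MTATP6P1 at chr1:633738-633887. Their parents are on the plus strand at chrM:8018-8167 for MT-CO2 and chrM:8569-8718 for MT-ATP6.
MTND6P4: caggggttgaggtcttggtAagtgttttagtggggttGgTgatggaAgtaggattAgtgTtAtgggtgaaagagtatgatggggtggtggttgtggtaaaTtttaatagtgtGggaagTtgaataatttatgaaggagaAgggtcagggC
MT-ND6: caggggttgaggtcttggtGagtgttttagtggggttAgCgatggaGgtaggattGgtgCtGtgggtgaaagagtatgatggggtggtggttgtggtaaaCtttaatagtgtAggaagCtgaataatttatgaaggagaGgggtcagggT
MTCO2P12: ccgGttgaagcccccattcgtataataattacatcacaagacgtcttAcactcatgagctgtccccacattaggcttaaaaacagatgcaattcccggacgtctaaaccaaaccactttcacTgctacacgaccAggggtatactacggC
MT-CO2: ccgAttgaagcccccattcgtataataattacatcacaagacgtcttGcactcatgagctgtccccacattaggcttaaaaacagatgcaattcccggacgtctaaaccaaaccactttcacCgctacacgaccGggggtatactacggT
MTATP6P1: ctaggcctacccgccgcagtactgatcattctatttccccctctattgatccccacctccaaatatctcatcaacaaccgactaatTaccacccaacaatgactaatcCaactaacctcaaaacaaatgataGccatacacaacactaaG
MT-ATP6: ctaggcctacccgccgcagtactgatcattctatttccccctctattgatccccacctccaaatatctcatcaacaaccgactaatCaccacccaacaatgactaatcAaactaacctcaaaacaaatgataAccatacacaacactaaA
The 150-base stretch held 12 differences for MTND6P4, 5 for MTCO2P12 and 4 for MTATP6P1. Counted from base 1 of the copy and written with the parental base first, those of MTATP6P1 were C129T, A151C, A175G and A192G.

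The members covered the whole protein-coding part of the mitochondrial genome. Complex I genes gave 36 members of 217 annotated copies, complex IV genes 16 of 115, ATP synthase genes 6 of 30 and MT-CYB 4 of 42. They were annotated as processed pseudogenes in 34 cases and as unprocessed pseudogenes in 28, and they fell into 33 blocks in which neighboring copies lay within 5 kb. Most were barely above the threshold of the rule. The mean over 6 libraries was below 0.1 FPKM for 43 members, from 0.1 to 1 FPKM for 10 and at least 1 FPKM for 9. Only 14 members were listed above 0 in all 6 libraries, whereas 24 were listed in 1 library, of which 13 in an LV-NC library and 11 in an LV-SNORA28 library. Just inside the rule, 2 members reached a highest value of 0.01 FPKM, and just outside it were the 342 copies at 0.

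Nearly all FPKM of the members was listed on 1 segment of chromosome 1 (chr1:629062-634922, plus strand), and whether its reads came from there was not tested. This block of 5861 nt carries 7 members side by side, in the order MTND1P23, MTND2P28, MTCO1P12, MTCO2P12, MTATP8P1, MTATP6P1 and MTCO3P12. It aligned to chrM:3911-9753 over 5844 columns with 98.5% identity and 86 differences. The 7 members together took between 99.7% and 99.9% of the FPKM of all members in each library. Their levels nevertheless spread widely within the segment, from a mean of 0.463 FPKM for MTATP8P1 to 3113 FPKM for the adjoining MTATP6P1. The 2 annotations overlap, as do those of their parents, and MTATP6P1 and MTCO3P12 share a boundary base. How reads that touch both annotations were counted is not given, and their part in these levels was not tested. On the opposite strand, the segment lies within the noncoding gene ENSG00000230021, for which the mean was 0.130 FPKM in both groups (SD 0.035 in LV-NC and 0.010 in LV-SNORA28, n = 3 each). MTCO1P12 and MTCO2P12 overlap its exons and the other 5 copies lie in its introns. The library protocol marks strand, but whether strand was used in counting is not given in the sources used here.

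The second segment lies on chromosome 5 (chr5:134923303-134928527) within PCBD2, which encodes a pterin dehydratase and transcriptional cofactor. Its 6 members are MTCYBP18, MTND6P4, MTND5P11, MTND4P12, MTND4LP30 and MTND3P25. It aligned in reverse orientation to chrM:10269-15487 with 94.1% identity and 310 differences. MTND6P4 is on the strand of PCBD2, inside an intron, and the other 5 are on the opposite strand. The remaining copy with a mean of at least 1 FPKM, MTCO2P2, is a fragment of 225 nt at chr18:47853233-47853457 in an intron of SMAD2, a transcription factor of the TGF-beta pathway, and on the same strand. PCBD2 (log2 fold change -0.15 ± 0.11 SE, adjusted p = 0.453) and SMAD2 (0.02 ± 0.10 SE, adjusted p = 0.898) did not pass the threshold of limma's moderated test, with n = 3 per group.

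Closeness to the parent went along with the level. Identity over the aligned columns ranged from 95.0% to 99.1% in the 9 members that averaged 1 FPKM or more, and its median was 98.2%. In the 53 lower members it ranged from 67.2% to 97.6%, with a median of 75.1%, and in the 342 copies at 0 from 64.3% to 93.7%, with a median of 74.6%. At least 95% identity was found in 11 of 62 members and in 0 of 342 copies at 0. Across the 62 members, Spearman's rho between mean FPKM and identity was 0.43, which is a description, since the level chose the members and copies of 1 segment share their origin. Reads were 150 bases long, and a single read from a 150-base window that the copy shares letter for letter with the mitochondrial genome cannot be assigned to either. Such windows were found in MTND2P28 (140 of 895 windows), MTCO1P12 (202 of 1394) and MTND1P23 (10 of 223). The other 59 members and all 342 copies at 0 had none. MTND3P25, of 135 nt, is shorter than a window and could have none. The windows were compared with the hg38 reference, and the mitochondrial genome of HCT116 itself was not examined. The lack of such a window does not show that every read of a copy was placed correctly.

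**Figure D1:**
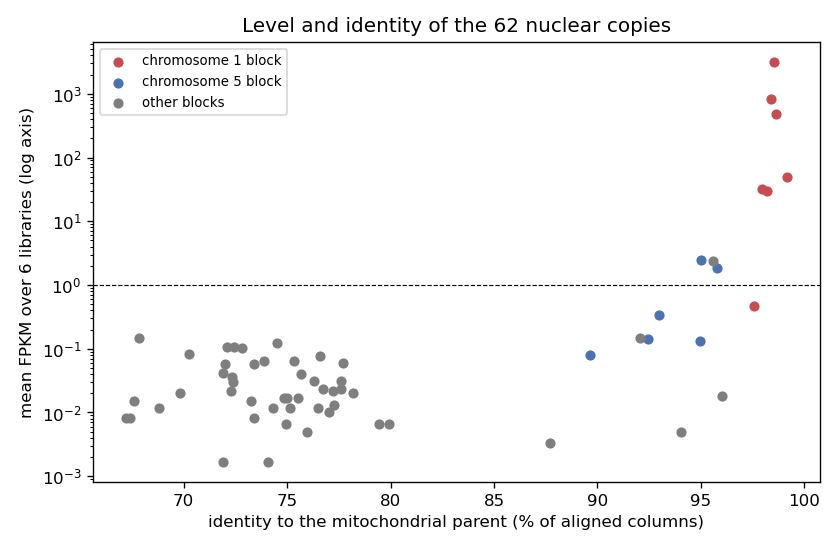
Mean FPKM over the 6 libraries (log axis) against percent identity to the mitochondrial parent for the 62 nuclear copies, 1 point per copy, colored by block; the dashed line marks 1 FPKM. The 6 highest points all belong to the chromosome 1 block, and every point above the line has an identity of at least 95.0%.

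The level of SNORA28 went with the labels. SNORA28 was at 0.92, 0 and 0.64 FPKM in LV-NC 1 to 3 and at 15.01, 13.66 and 15.2 FPKM in LV-SNORA28 1 to 3. Epithelial markers were present (EPCAM 96.9 to 115 FPKM, KRT19 358 to 412 FPKM), and those of leukocytes, endothelium and liver did not exceed 0.08 FPKM for PTPRC, 0.02 for PECAM1 and 0.22 for ALB, while COL1A1 was at 3.16 to 4.46 FPKM with COL1A2 at 0. Of all FPKM in a library, the mitochondrial genome took 42.7% to 47.7% for LV-NC and 35.9% to 38.3% for LV-SNORA28. LV-NC 2 had the highest share, and it was also the highest library for MTATP6P1, MTND2P28, MTCO1P12, MTND1P23, MTCO2P12, MTCO3P12 and MTND4P12. For MTCO1P12 the margin over LV-NC 1 was small (607 against 598 FPKM).

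The summed level of the 62 copies was 4614, 6262 and 4599 FPKM in LV-NC 1 to 3 and 4338, 3971 and 3568 FPKM in LV-SNORA28 1 to 3. Each LV-SNORA28 library lay below every LV-NC library, with means of 5158 ± 956 and 3959 ± 385 FPKM (SD, n = 3 each). The difference of -1199 FPKM came to -648 FPKM without LV-NC 2. Without MTATP6P1 the sums were 1388, 1925 and 1459 FPKM against 1325, 1394 and 1181 FPKM, and LV-SNORA28 2 then lay above LV-NC 1. Relative to the summed FPKM of the 13 mitochondrial protein genes, the copies came to 3.69% ± 0.17 in LV-NC and 3.84% ± 0.13 in LV-SNORA28 (SD, n = 3 each), and the groups overlapped. Less RNA per cell and fewer cells of a kind cannot be told apart in such bulk samples.

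Of the 62 members, 9 passed the filter of a mean of at least 1 FPKM and were tested among 12076 genes with limma on log2(FPKM + 1), a scale that understates the change of low genes. In LV-SNORA28, 4 copies were lower at an adjusted p below 0.05, namely MTND6P4, MTCO1P12, MTCO2P12 and MTCO3P12, and 0 were higher, also at an unadjusted p below 0.05. Over all genes tested, 2.10% were called lower and 6.81% higher. Of the 4 copies, MTND6P4 passed the filter through its LV-NC values, and the others are neighbors on the chromosome 1 segment. They are therefore not separate members to set against these shares. The median log2 fold change was -0.63 for the 9 copies, 0.09 for all genes tested, -0.06 for 727 other pseudogenes (94 lower, 14 higher) and -0.43 for the 13 mitochondrial protein genes (4 lower, 0 higher). These medians depended on the scaling. That of the 9 copies was -0.20 with scaling to the mitochondrial messages and -0.58 with quantile normalization. With 1 library left out it lay between -0.66 (without LV-NC 3) and -0.34 (without LV-SNORA28 3). With scaling to the mitochondrial messages, which put all genes at a median of 0.43, the other pseudogenes were at 0.25 (47 lower, 166 higher) and the mitochondrial genes at -0.01 (1 lower). With quantile normalization the mitochondrial genes were at 0 (1 lower) and the other pseudogenes at -0.14 (105 lower, 8 higher). Dividing by the mitochondrial messages brings their own median near 0 by construction. Quantile normalization gives each rank the same value in every library, so a gene that keeps its rank shows no change. Both medians of the mitochondrial genes therefore cannot show whether these messages fell. With the replicate block 2 mitochondrial genes were called lower. In 5 of the 9 copies every LV-SNORA28 library lay below every LV-NC library, and in 0 above. Among all genes tested, these shares were 8.16% and 27.0%. The same limit holds here, since MTND6P4 is among the 5 and the others lie on the chromosome 1 segment.

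**Figure D2:**
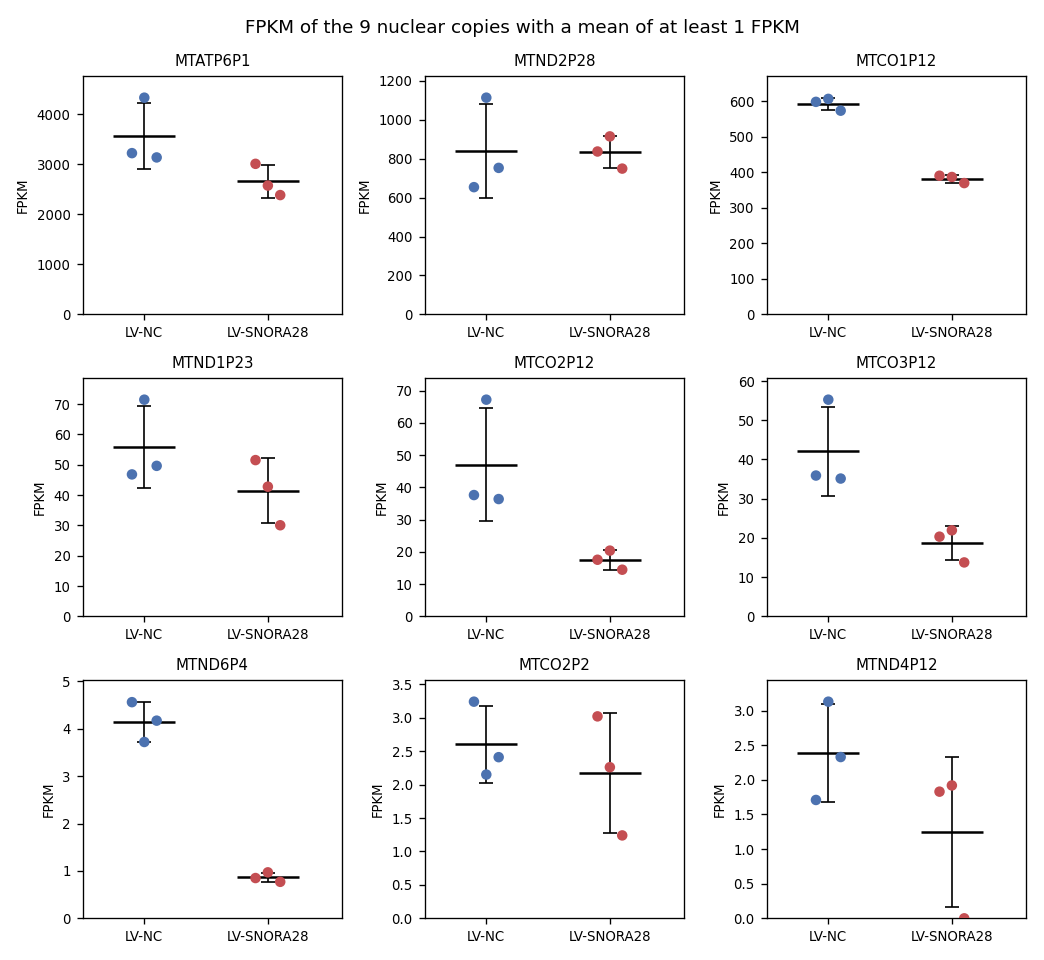
FPKM (linear axes from 0, scaled per panel) of the 9 copies with a mean of at least 1 FPKM in 3 LV-NC (blue) and 3 LV-SNORA28 (red) libraries; lines are means and bars SD. MTCO1P12, MTCO2P12, MTCO3P12, MTND6P4 and MTATP6P1 show no overlap between the groups, and MTND4P12 is listed at 0 in LV-SNORA28 3.

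Among the complex I copies, MTND6P4 showed the largest fold change of the 9. Its parent MT-ND6 is the only protein gene transcribed from the light strand of the mitochondrial genome. MTND6P4 was at 4.56, 3.72 and 4.17 FPKM in LV-NC 1 to 3 and at 0.85, 0.97 and 0.77 FPKM in LV-SNORA28 1 to 3. All LV-SNORA28 libraries were below 1 FPKM and far from the LV-NC libraries, so that MTND6P4 passed the filter through its LV-NC values. The mean fell from 4.15 ± 0.42 to 0.863 ± 0.10 FPKM (SD, n = 3 each). The log2 fold change was -1.46 ± 0.09 SE (limma, adjusted p = 0.00207). It stayed below an adjusted p of 0.05 in each alternative that changed 1 choice and left it in the test (limma, 0.00154 to 0.0321). All of these but the fit without a filter (limma, adjusted p = 0.0101) kept the filter that it passed through its LV-NC values. Without a filter, leaving out any 1 library or adding the replicate block called 0 members and at most 41 of 32761 genes. MT-ND6 itself fell by 0.77 on the log2 scale (limma, adjusted p = 0.00696), from 4041 ± 311 to 2372 ± 148 FPKM (SD, n = 3 each).

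The other complex I copies did not pass the threshold. MTND2P28, the second most abundant member, was at 654, 1114 and 753 FPKM in LV-NC 1 to 3 and at 837, 915 and 749 FPKM in LV-SNORA28 1 to 3. All LV-SNORA28 libraries lay within the range of the LV-NC libraries, of which LV-NC 2 was the highest, and the log2 fold change was 0.02 ± 0.20 SE (limma, adjusted p = 0.958). MTND1P23 was at 46.8, 71.5 and 49.6 FPKM against 51.5, 42.8 and 30.0 FPKM, with LV-SNORA28 1 above LV-NC 1 and 3 (-0.43 ± 0.23 SE, limma adjusted p = 0.279). MTND4P12 was at 1.71, 3.13 and 2.33 FPKM against 1.83 and 1.92 FPKM in LV-SNORA28 1 and 2, and it was listed at 0 in LV-SNORA28 3. Its parent MT-ND4 was at 9424 FPKM in that library, and a failed estimate cannot be told apart from an absent transcript. The fold change of MTND4P12 (-0.72 ± 0.43 SE, limma adjusted p = 0.317) rested on that library and came to -0.22 without it.

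The 3 complex IV copies of the chromosome 1 segment were lower in LV-SNORA28. MTCO1P12, from the gene of the catalytic subunit, was at 598, 607 and 574 FPKM in LV-NC 1 to 3 and at 390, 387 and 370 FPKM in LV-SNORA28 1 to 3. The libraries of each group lay close together and the groups were well apart, with a log2 fold change of -0.63 ± 0.06 SE (limma, adjusted p = 0.00383). MT-CO1 changed by nearly as much (-0.56 ± 0.08 SE, limma adjusted p = 0.0127). With all libraries scaled to the summed mitochondrial messages, MTCO1P12 was at -0.20 (limma, adjusted p = 0.150). That scaling moved the median over all tested genes from 0.09 to 0.43 (log2).

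MTCO2P12, from the gene of the subunit that receives electrons from cytochrome c, was at 37.6, 67.2 and 36.4 FPKM in LV-NC 1 to 3 and at 17.6, 20.4 and 14.5 FPKM in LV-SNORA28 1 to 3. LV-NC 2 stood above the rest, but the groups did not overlap (-1.33 ± 0.25 SE, limma adjusted p = 0.0269). MTCO3P12, from the gene of a core subunit without redox centers, was at 35.9, 55.3 and 35.1 FPKM against 20.3, 21.9 and 13.8 FPKM, with the same order of LV-NC libraries (-1.13 ± 0.23 SE, limma adjusted p = 0.0345). Both calls were sensitive to the number of libraries. Without any single one of the 6 libraries, the limma adjusted p of MTCO3P12 was between 0.0603 and 0.0878, with log2 fold changes of -1.25 to -0.92. MTCO2P12 lost its call without LV-SNORA28 1, 2 or 3, with limma adjusted p-values of 0.0754, 0.0670 and 0.0942, and its log2 fold change ranged from -1.49 to -1.05 over all libraries left out. The parents MT-CO2 (-0.47 ± 0.15 SE, limma adjusted p = 0.104) and MT-CO3 (-0.36 ± 0.13 SE, limma adjusted p = 0.134) did not pass.

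MTCO2P2 is another of the 3 members with MT-CO2 as parent. It was at 3.24, 2.15 and 2.41 FPKM in LV-NC 1 to 3 and at 3.02, 2.26 and 1.24 FPKM in LV-SNORA28 1 to 3, so that the groups overlapped (-0.21 ± 0.23 SE, limma adjusted p = 0.590). Without LV-SNORA28 3 the fold change came to 0.02. Whether its change differed from that of MTCO2P12 was not tested.

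MTATP6P1, whose parent encodes the proton channel subunit of ATP synthase, was the most abundant member. It was at 3226, 4336 and 3140 FPKM in LV-NC 1 to 3 and at 3012, 2577 and 2387 FPKM in LV-SNORA28 1 to 3. The groups did not overlap, although LV-SNORA28 1 lay close to LV-NC 3, and the means were 3568 ± 667 and 2659 ± 321 FPKM (SD, n = 3 each). The change of -0.41 ± 0.15 SE on the log2 scale missed the threshold (limma, adjusted p = 0.134), and its sign turned to 0.07 with quantile normalization and to 0.01 with scaling to the mitochondrial messages. Scaling to these messages removes a change shared with them, and quantile normalization hides a change that leaves the rank as it was. Without LV-NC 2 the change of MTATP6P1 came to -0.27. MT-ATP6 was called lower (-0.62 ± 0.12 SE, limma adjusted p = 0.0300).

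**Figure D3:**
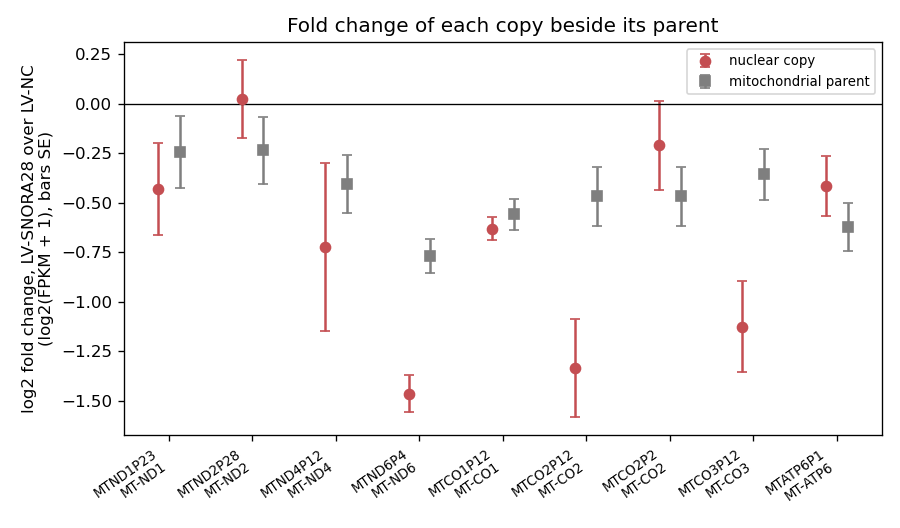
Log2 fold change of LV-SNORA28 over LV-NC on log2(FPKM + 1), with limma's SE, for each of the 9 copies (circles) and its mitochondrial parent (squares), ordered by complex. MTND6P4, MTCO2P12 and MTCO3P12 lie between -1.46 and -1.13 and below their parents, while MTCO1P12 at -0.63 is beside MT-CO1 at -0.56.

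The listed proportion of copy to parent was higher in LV-SNORA28 for some copies and lower for others. Whether these changes differed between copies was not tested. MTATP6P1 came to 53.1%, 57.2% and 51.4% of the FPKM of MT-ATP6 in LV-NC 1 to 3 and to 64.3%, 60.3% and 62.0% in LV-SNORA28 1 to 3. MTND2P28 came to 12.6%, 13.8% and 12.7% of MT-ND2 against 15.0%, 16.3% and 15.5%. For both pairs, all LV-SNORA28 libraries had the higher percentage, by 0.21 and 0.26 on the log2 scale. MTCO1P12 came to 3.74% ± 0.11 of MT-CO1 in LV-NC and 3.56% ± 0.25 in LV-SNORA28 (SD, n = 3 each), with overlap, and MTND1P23 to 0.879% ± 0.036 and 0.779% ± 0.17 of MT-ND1, also with overlap.

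The proportion was lower in LV-SNORA28, without overlap, in 3 of the other pairs with a copy of at least 1 FPKM. The pairs of MTND4P12 and MTCO2P2 overlapped. MTND4P12 came to a mean of 0.0165% of MT-ND4 in LV-NC and 0.0110% in LV-SNORA28 (exact permutation p = 0.9). MTCO2P2 came to 0.0113% and 0.0124% of MT-CO2 (exact permutation p = 0.5). MTCO2P12 came to 0.181%, 0.232% and 0.163% of MT-CO2 in LV-NC 1 to 3 and to 0.0959%, 0.112% and 0.0950% in LV-SNORA28 1 to 3. MTCO3P12 came to 0.213%, 0.248% and 0.203% of MT-CO3 against 0.133%, 0.145% and 0.103%. MTND6P4 came to 0.119%, 0.0846% and 0.107% of MT-ND6 against 0.0334%, 0.0425% and 0.0337%. In each of the 3 pairs all LV-SNORA28 libraries had the lower percentage, with differences of -0.87, -0.77 and -0.70 in the log2 ratio of copy to parent, each with 1 FPKM added. With 0.1 FPKM added the differences were -0.91, -0.81 and -1.37, so that MTND6P4 moved from the smallest of the 3 to the largest. An exact two-sided permutation test of the log2 ratio gave p = 0.1 for these 3 pairs and for MTATP6P1 and MTND2P28, the smallest value that 3 against 3 libraries allow, and p = 0.4 for MTCO1P12 and MTND1P23. Ratios were tested for 14 copies, and with this smallest value 0.05 could not be reached. Among the copies below 1 FPKM, exact p was also 0.1 for MTND5P11 (0.71), MTCO1P2 (0.50) and MTND5P1 (0.46), all higher in this log2 ratio. The added 1 FPKM exceeds every value of these 3 copies, so that the ratio mostly follows the parent. With 0.1 FPKM added, the 3 ratios came to 0.90 (exact p = 0.1), 0.35 (exact p = 0.5) and -0.17 (exact p = 0.7). The percentages of MTCO1P2 overlapped between the groups, with a mean of 0.0011% in each. Those of MTND5P1 also overlapped, with means of 0.0048% in LV-NC and 0.0024% in LV-SNORA28. As a percentage of the parent, MTND5P11 was higher and MTATP8P1 lower in every LV-SNORA28 library, and the log2 ratio of MTATP8P1 differed by -0.03 (exact p = 1). Copies with windows identical to the mitochondrial genome were found both among the pairs with overlap (MTCO1P12, MTND1P23) and among those without (MTND2P28), and the part of shared reads in the ratios was not tested.

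**Figure D4:**
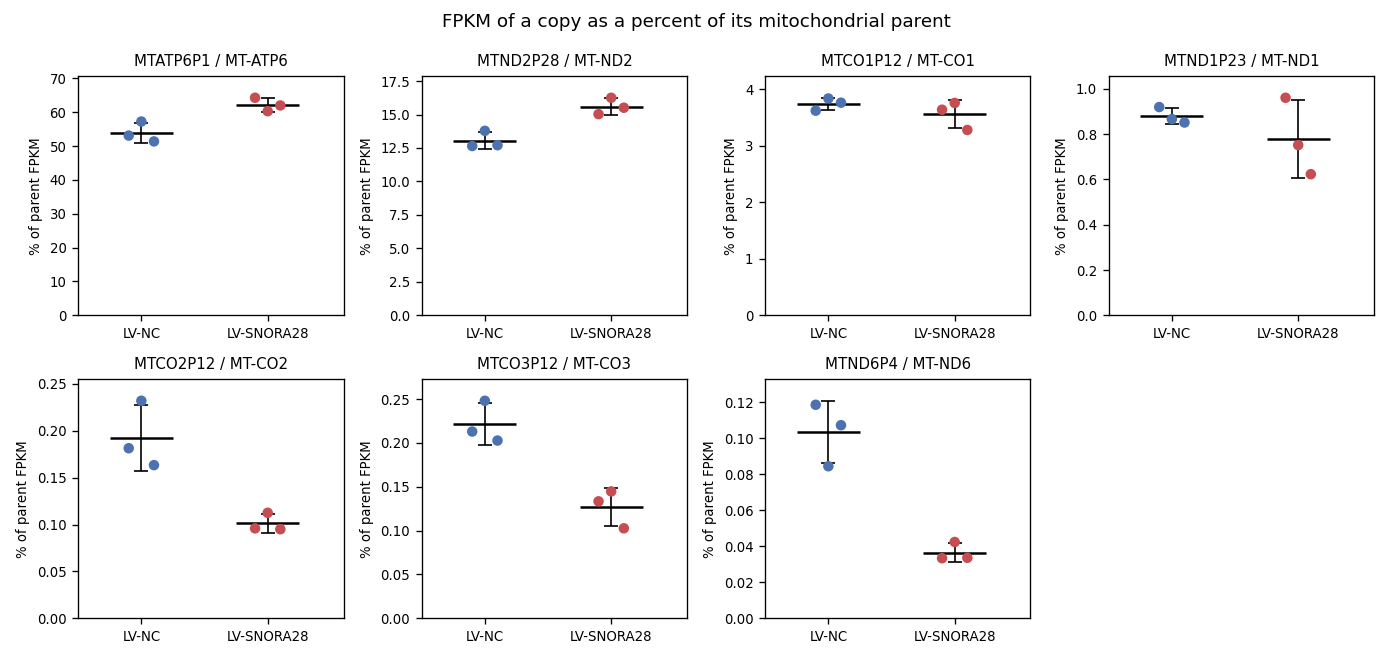
FPKM of 7 copies as a percentage of the FPKM of the mitochondrial parent (linear axes from 0, scaled per panel) in 3 LV-NC (blue) and 3 LV-SNORA28 (red) libraries; lines are means and bars SD. The percentage is higher in LV-SNORA28 for MTATP6P1 and MTND2P28, overlaps for MTCO1P12 and MTND1P23, and is lower for MTCO2P12, MTCO3P12 and MTND6P4.

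The 53 members below a mean of 1 FPKM were read from a fit of all 32761 genes listed above 0 in at least 1 library. In that fit 2 of the 62 members, MTND6P4 and MTCO1P12, were called lower and 0 higher, against 0.278% of all genes called lower. With any 1 of the 6 libraries left out, the same limma fit called 0 of the 62 and no more than 41 of all 32761 genes. In those fits 6 to 8 of the 62 had an unadjusted p below 0.05, against 12.6% to 15.1% of all genes. In limma's test 0 of the 53 were called and 2, MTATP8P1 and MTND1P14, had an unadjusted p below 0.05, as did 14.5% of all genes. The smallest limma adjusted p was 0.10, that of MTATP8P1. MTND1P14, named after its values were seen, was listed at 0 in all LV-NC libraries and was at 0.05, 0.03 and 0.05 FPKM in LV-SNORA28 1 to 3. MTATP8P1, whose parent encodes a small membrane subunit of ATP synthase, was at 0.85, 0.50 and 0.76 FPKM in LV-NC 1 to 3 and at 0.23, 0.26 and 0.18 FPKM in LV-SNORA28 1 to 3. Its groups did not overlap, and the log2 fold change was -0.47 ± 0.10 SE. On the chromosome 5 segment, MTND5P11 was at 0.38, 0.17 and 0.35 FPKM against 0.37, 0.45 and 0.29 FPKM, with the groups overlapping. MTCYBP18, the highest of the MT-CYB copies, was at 0.49, 0 and 0.03 FPKM against 0.19, 0.06 and 0.07 FPKM, and its LV-NC libraries spanned those of LV-SNORA28. MTCO1P2, in an intron of AKAP6, ranged from 0.07 to 0.29 FPKM in LV-NC and from 0.11 to 0.13 FPKM in LV-SNORA28, and MTND5P1 from 0.10 to 0.47 FPKM and from 0 to 0.15 FPKM. The remaining 48 members had means of at most 0.133 FPKM and single values of at most 0.46 FPKM. Values above 0 were equally frequent in both groups for the 53 members, with 63 of 159 in LV-NC and 63 of 159 in LV-SNORA28.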

How the data were processed

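Poly(A)-selected, dUTP-stranded libraries from HCT116 cells were sequenced as paired ends of 150 bases. The authors deposited 1 table per library with Ensembl identifiers and FPKM values written with 2 decimals, and no further per-sample column existed (0 unused). The submitters' processing notes name cutadapt 1.9, HISAT2 2.2.1 and StringTie 2.1.6 with hg38. The annotation release, the handling of reads that map to several places and the mapped totals were not given in the sources used here, so depth is unknown and no counting interval was attached. FPKM values are scaled to the size of a library, so that large changes in the abundant mitochondrial transcripts can move the values of other genes. The summed FPKM outside the mitochondrial genome averaged 193783 in LV-NC and 197457 in LV-SNORA28.

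Symbols (60401 of 60612 genes), biotypes and coordinates came from GENCODE release 44 on hg38. Each copy was aligned to its parent gene with Biopython 1.88 (local alignment, match score 2, penalties of 3 for a mismatch, 5 for opening and 2 for extending a gap). Values were tested as log2(FPKM + 1) with lmFit and trended eBayes of limma 3.58.1 in R 4.3.3, over 12076 genes that averaged 1 FPKM or more or, for lower members, over 32761 genes, with two-sided p-values adjusted by the Benjamini-Hochberg method over all genes tested. Ratios to the parent were compared with exact permutation tests (scipy 1.17.1). Alternatives were another pseudocount, filter, scaling or variance model, the replicate number as a block, and each library left out in turn. Named were the 9 members with a mean of at least 1 FPKM, the 5 next highest and any member called without the filter. The members and lists were chosen with earlier results of these data known. Any pair of libraries had different values in 26342 or more genes. Copies of the mitochondrial ribosomal RNA genes were also listed for comparison, but 0 of 13 symbols matched the annotation, so they were not analysed here.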

Additional observations from a re-analysis of the deposited data

How the results depend on the processing

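Changing 1 choice at a time, the named copies gave 183 alternative log2 fold changes, of which 158 kept direction and call, 12 lost the call, 1 gained it and 12 changed sign without a call. Of the 4 copies lower in the report, 4 were called with quantile normalization, nuclear scaling, a pseudocount of 0.1, no variance trend and the replicate block, 3 with mitochondrial scaling (MTCO1P12 lost) and with a mean of at least 5 FPKM (MTND6P4 not tested), and 2 without a filter (MTND6P4 and MTCO1P12). With 1 library left out, 2 to 3 were called. Scaling to the mitochondrial messages called 1 copy higher, MTND2P28 (0.45, limma adjusted p = 0.0164), with the median of all genes at 0.43. Over all genes, 1076 calls became 5879 with that scaling, 397 without a filter, 510 with the replicate block and 279 to 628 with 1 library left out. With quantile normalization 451 were higher and 375 lower, against 822 and 254. Numbers did not pair the libraries (correlations of deviations -0.04, 0.09 and 0.01), and the replicate block changed no call among the named copies as tested in the report. Applied to the fit without a filter, the block called 0 of all 32761 genes in limma's test, members included. An unadjusted p below 0.05 was found for 6 of the 62 members and 13.9% of all genes. The difference in the summed FPKM was -290.4 without MTATP6P1 and -1479 to -648 with 1 library left out.

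Sign changes without a call were found for MTATP6P1 (0.0708 quantile, 0.0141 mitochondrial scaling), MTND2P28 (-0.00535 nuclear scaling, -0.14 to 0.24 with 1 library left out), MTCO2P2 (0.0737 mitochondrial scaling, -0.40 to 0.0196 with 1 library left out), MTCO1P2 (0.00327 mitochondrial scaling, -0.12 to 0.0119 with 1 library left out) and MTCYBP18 (0.0135 with a pseudocount of 0.1, -0.16 to 0.12 with 1 library left out). Among 98 alternative log2 ratios to the parent, 5 changed sign: 1 for MTND4P12 (-0.55 to 0.10 with 1 library left out), 3 for MTATP8P1 (-0.31 to 0.13) and 1 for MTND5P1 (-0.17 with a pseudocount of 0.1). The cause was not tested. Copies below 1 FPKM rest on few fragments of unknown number.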
